A study of Homo sapiens
Mus musculus with 2 samples.

Results

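The genes described here are Myc and 4 genes of cell growth that are commonly listed as its targets, Odc1, Ncl, Npm1 and Nme1, in mouse cells, and their human orthologues MYC, ODC1, NCL, NPM1 and NME1. They were chosen by a fixed list of 10 identifiers, 5 mouse and 5 human, out of 29259 genes in the count tables, and all 10 were present. The rule itself used no expression value, though the list was chosen with earlier results of these data known. The identifiers are mm10_ENSMUSG00000022346 (Myc), mm10_ENSMUSG00000011179 (Odc1), mm10_ENSMUSG00000026234 (Ncl), mm10_ENSMUSG00000057113 (Npm1) and mm10_ENSMUSG00000037601 (Nme1). The human ones are hg19_ENSG00000136997 (MYC), hg19_ENSG00000115758 (ODC1), hg19_ENSG00000115053 (NCL), hg19_ENSG00000181163 (NPM1) and hg19_ENSG00000239672 (NME1).

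MYC is a transcription factor that pairs with MAX and binds the promoters of many genes of growth, ribosome production and metabolism. Its messenger RNA and protein turn over quickly, and its locus is often rearranged or amplified in tumours of lymphocytes. ODC1 is ornithine decarboxylase, the rate-limiting enzyme of polyamine synthesis. NCL (nucleolin) and NPM1 (nucleophosmin) are abundant proteins of the nucleolus that take part in ribosome assembly. NME1 is a nucleoside diphosphate kinase, which keeps nucleoside triphosphates in balance.

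The study mixed 4 cultured lymphocyte lines in equal parts and made Drop-seq libraries, a method that encapsulates cells in droplets together with barcoded beads and counts transcripts from their 3′ ends. EL4 is a mouse CD4+ T cell line, IVA12 a mouse B cell line, Jurkat a human CD4+ T cell line and TALL-104 a small human CD8+ T cell line grown with IL-2. The lines grew in different media, so line and medium cannot be told apart. The groups were 1 library loaded with 150 cells per µl and 1 loaded with 300, both from the same 4 lines, called the 150 library and the 300 library from here on. All 4 are established cell lines, which limits them as models of lymphocytes in tissue.

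Cells were barcodes with at least 1000 UMIs (unique molecular identifiers, each counting a captured transcript once) and at least 90% of UMIs from 1 species. There were 85 mouse and 87 human cells in the 150 library, and 685 and 318 in the 300 library. Clustering without the 5 mouse genes gave EL4-like cells (42 and 348), the group with the higher share of T cell marker UMIs. The other group was named IVA12-like (34 and 251). A further 9 and 86 mouse cells formed a shallow cluster with markers of both lines and stayed unnamed. The T cell markers were 5 of 6 in the tables and summed to 2085 and 2281 CPM (UMIs scaled to a total of 1000000 UMIs of the species) in EL4-like cells against 19.6 and 68.6 in IVA12-like cells. The B cell markers were 5 of 7 in the tables and summed to 5795 and 5169 CPM in IVA12-like cells against 30.6 and 59.2 in EL4-like cells. Among them Jchain, Cd79b and Ms4a1 were high, while Cd79a, a defining part of the B cell receptor, had 0 and 2 UMIs. All 405 human cells were taken as 1 Jurkat-like class, with CD3D, CD3E, CD3G and LCK summing to 2537 and 2651 CPM. In human-rich barcodes of 300 to under 1000 UMIs the same genes summed to 2576 and 2386 CPM. This sum alone therefore does not separate the human lines. The 6 cytotoxic markers fixed for TALL-104 summed to 17.8 and 26.4 CPM in Jurkat-like cells, where 2 and 4 of the 6 were detected. GZMA had 10 and 24 UMIs, NKG7 0 and 5, PRF1 1 and 4, CD8A 0 and 2, and GZMB and GNLY 0. No TALL-104-like class is reported, though sums over a class cannot exclude a few TALL-104 cells among the 405. The libraries shared 1 cell barcode.

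Myc differed most of the 5 genes between the mouse lines. In EL4-like cells it had 83 UMIs in the 150 library, or 141 CPM (95% Poisson interval 112 to 175), and 500 UMIs in the 300 library, or 160.1 CPM (146 to 175). In IVA12-like cells it had 498 UMIs, or 1084 CPM (991 to 1183), and 2593 UMIs, or 1140.2 CPM (1097 to 1185). The values of the lines did not overlap, and both IVA12-like values lay far above both EL4-like values. The ratio of IVA12-like to EL4-like was 7.68 in the 150 library and 7.12 in the 300 library. Intervals here and below cover counting error only.

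Odc1 differed the opposite way. It had 59 and 446 UMIs in EL4-like cells, or 100.2 CPM (76.3 to 129) and 143 CPM (130 to 157). In IVA12-like cells it had 10 and 118 UMIs, or 21.8 CPM (10.4 to 40.02) and 51.9 CPM (43.0 to 62.1). The line with the higher Myc level was therefore the line with the lower Odc1 level in both libraries. Counts of Odc1 in IVA12-like cells in the 150 library were few, and that value is the least precise of the 5 genes.

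Ncl lay close together in both mouse lines. It was at 2464 CPM (2338 to 2594) and 2874 CPM (2814 to 2934) in EL4-like cells. In IVA12-like cells it was at 2346 CPM (2208 to 2490) and 2817 CPM (2748 to 2887). The libraries differed more than the lines did, and both lines were higher in the 300 library.

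Npm1, the other nucleolar gene, was at 3478 CPM (3329 to 3632) and 3439 CPM (3374 to 3505) in EL4-like cells. It was at 3719 CPM (3545 to 3900) and 3768 CPM (3689 to 3849) in IVA12-like cells. The IVA12-like values were the higher in each library, by a ratio of 1.07 and 1.10. NPM1 has processed pseudogenes in both genomes, and how the counting treated reads shared with them is not known, so its counts are uncertain to that extent.

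Nme1 was higher in IVA12-like cells. It had 496 and 2352 UMIs in EL4-like cells, or 843 CPM (770.2 to 920.3) and 753 CPM (723 to 784). In IVA12-like cells it had 652 and 2763 UMIs, or 1419 CPM (1312 to 1532) and 1215 CPM (1170.1 to 1261). The lines did not overlap, with ratios of 1.68 and 1.61. NME1 has a near-identical neighbour, NME2, with which reads can be shared, so the count may hold reads of both.

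**Figure D1:**
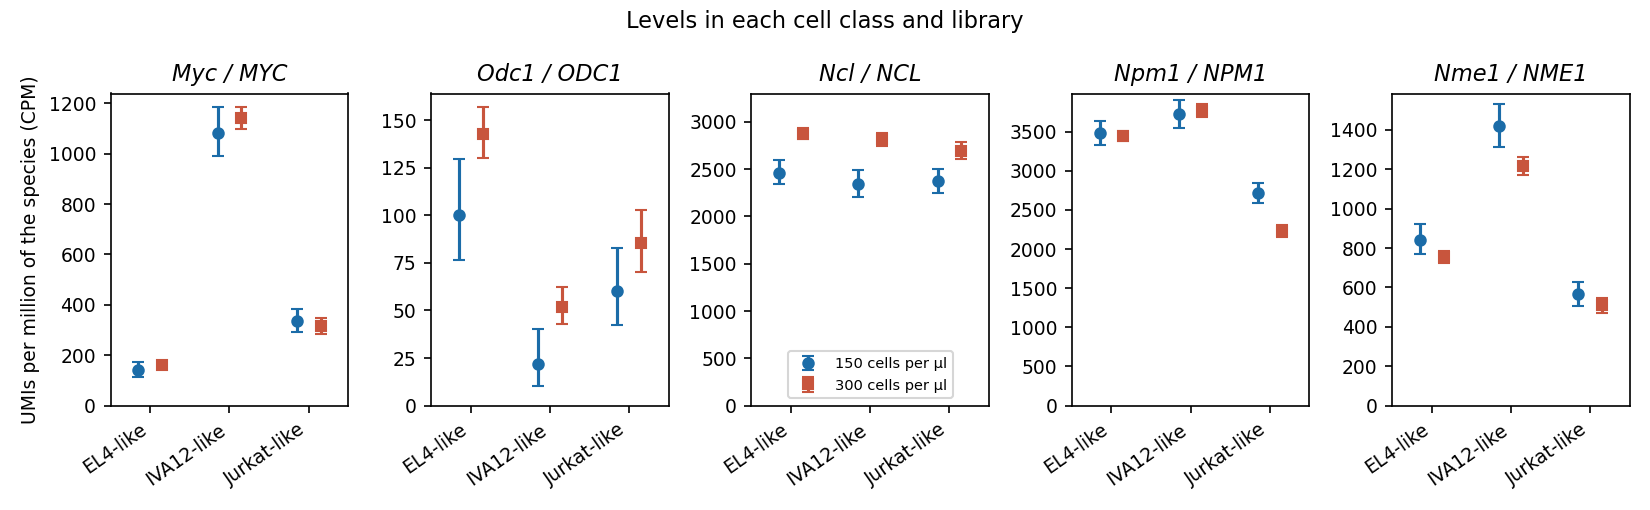
Level of each gene in CPM of the species (vertical axis, from 0) in EL4-like and IVA12-like cells (mouse gene) and Jurkat-like cells (human gene), with circles for the 150 library, squares for the 300 library and bars for 95% Poisson intervals. Myc is at 1084 and 1140.2 CPM in IVA12-like cells and at 141 and 160.1 CPM in EL4-like cells, while Odc1 shows the opposite order.

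The lines were compared by the quasi-likelihood test of edgeR on 4 sums of UMIs, 1 per library and line, with the library as a block. The p-values rest on a spread pooled over all genes from 2 libraries of the same 4 lines. They measure neither the own spread of each gene nor that between cultures. All 5 mouse genes passed the filter on low counts, and 3 of 5 were called (adjusted p under 0.05). Of these 2 were higher in IVA12-like and 1 was higher in EL4-like cells. Over all genes tested, 57.2% were called (5094 of 8902), 27.8% higher in IVA12-like and 29.4% higher in EL4-like cells. The share among the 5 was thus near that of all genes in this fit. The median log2 fold change was 0.07 over the 5 genes and -0.03 over all genes. The 5 did not move as a set.

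The log2 fold change of Myc, IVA12-like minus EL4-like, was 2.83 (SE 0.11, edgeR adjusted p = 1.84e-134), a 7.12-fold higher level. A larger absolute change was found for 1057 of the 8902 genes (11.9%). For Odc1 the log2 fold change was -1.61 (SE 0.20, edgeR adjusted p = 4.77e-15), a 3.05-fold higher level in EL4-like cells. By DESeq2 the log2 fold change of Odc1 was -1.76 (SE 0.49, DESeq2 adjusted p = 0.003). For Nme1 it was 0.68 (SE 0.09, edgeR adjusted p = 4.49e-14), a 1.60-fold higher level in IVA12-like cells, with 46.7% of genes changing more. Without the library block the adjusted p of Nme1 was 0.0499.

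The nucleolar pair did not pass the test. The log2 fold change of Ncl was -0.09 (SE 0.07, edgeR adjusted p = 0.27) and that of Npm1 0.07 (SE 0.06, edgeR adjusted p = 0.34). Without the filter on low counts the edgeR adjusted p of Npm1 was 0.026 at a log2 fold change of 0.16. The median over all genes was then also 0.16, where it was -0.03 with the filter.

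**Figure D2:**
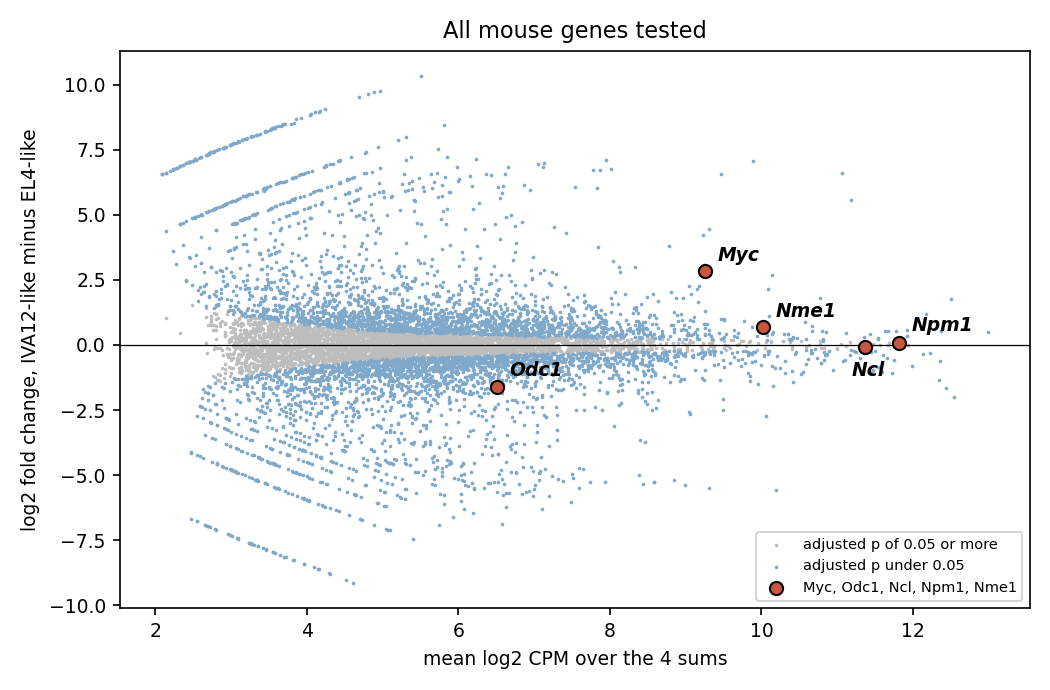
Log2 fold change of IVA12-like minus EL4-like cells (vertical axis) against mean log2 CPM over the 4 sums (horizontal axis) for the 8902 mouse genes tested, in blue where the adjusted p was under 0.05 and grey otherwise, with the 5 genes as labelled red points. Myc lies at 2.83 and Odc1 at -1.61, while Ncl and Npm1 lie within 0.1 of 0.

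Free RNA in droplets can add UMIs of a gene to cells that do not make it, so marker genes of each mouse line were measured in the other. In EL4-like cells the B cell markers Jchain, Ms4a1 and Cd79b stood at 0.473%, 1.17% and 0.342% of their IVA12-like level in the 150 library, and at 1.19%, 0.842% and 0.995% in the 300 library. Myc in EL4-like cells stood at 13.0% and 14.04% of its IVA12-like level, above all 3 markers in both libraries. In IVA12-like cells the T cell markers Thy1, Cd3d and Cd3g stood at 0%, 2.44% and 0.724% of their EL4-like level in the 150 library, and at 2.996%, 2.52% and 3.34% in the 300 library. Odc1 in IVA12-like cells stood at 21.7% and 36.3%.

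Barcodes of 200 to 600 UMIs that were mostly mouse gave the level in droplets with little cell RNA. There Myc was at 514 and 531 CPM and Odc1 at 125 and 116 CPM, so for Myc these barcodes lay between the lines. In Jurkat-like cells, which have no mouse genome, mouse Myc stood at 14.4 and 16.0 CPM when all UMIs of both species were taken as the total. In EL4-like cells the same measure was 140.5 and 159.

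The share of cells with a Myc UMI was then compared at equal depth, since median depths were 12429 and 8074 UMIs in EL4-like cells, 14065.5 and 7807 in IVA12-like cells, and 6383 and 3713.5 in Jurkat-like cells. Each cell was thinned to 2000 UMIs, which left out 0 and 10 EL4-like, 4 and 22 IVA12-like, and 5 and 36 Jurkat-like cells. Myc was then detected in 28.6% (95% exact binomial interval 15.7% to 44.6%) and 27.5% (22.8% to 32.6%) of EL4-like cells. In IVA12-like cells it was detected in 80.0% (61.4% to 92.3%) and 84.7% (79.4% to 89.1%). Before thinning the shares were 73.8% and 63.2% in EL4-like and 91.2% and 94.4% in IVA12-like cells. Mouse Myc was seen in 4.88% and 3.55% of thinned Jurkat-like cells, which is the background of this measure.

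The number of Myc UMIs per cell also differed. At 2000 UMIs, 13 of 30 and 100 of 229 IVA12-like cells had 3 or more Myc UMIs, and the highest cells had 14 and 8. Among EL4-like cells, 0 of 42 and 1 of 338 had 3 or more. The mean was 2.47 and 2.36 UMIs per IVA12-like cell against 0.31 and 0.32 per EL4-like cell. The variance over the mean, which is 1 for Poisson counts, was 0.865 and 0.992 in EL4-like cells and 2.84 and 1.35 in IVA12-like cells. At a like relative spread this ratio lies nearer 1 where the mean is low. With means this unlike, it cannot show in which line Myc was the more uneven.

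**Figure D3:**
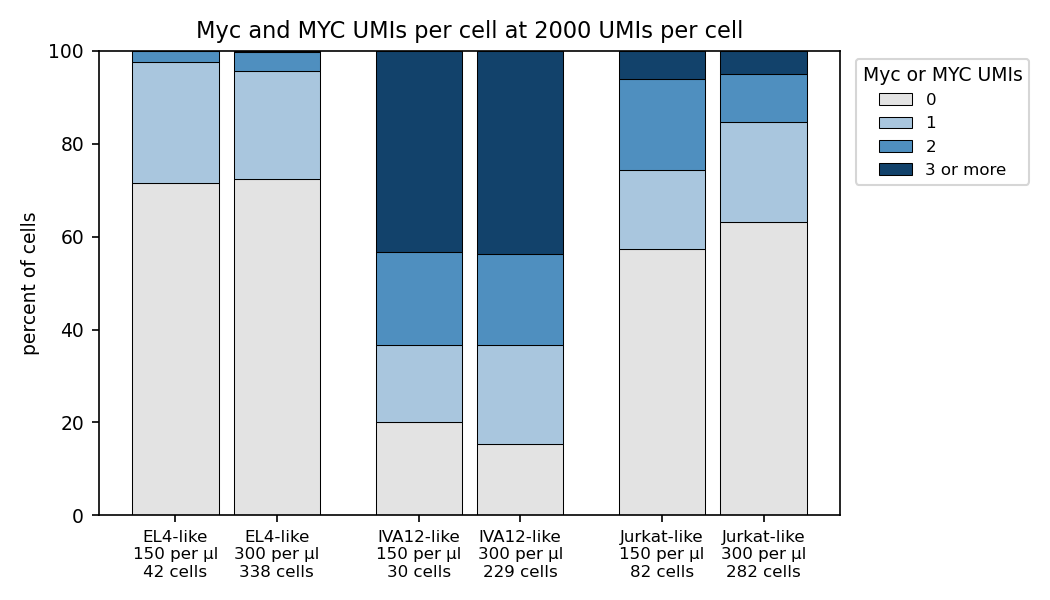
Percent of cells (vertical axis) with 0, 1, 2 or at least 3 UMIs of Myc (EL4-like and IVA12-like) or MYC (Jurkat-like) after thinning each cell to 2000 UMIs, by class and library, with the number of cells under each bar. At least 3 UMIs were found in 13 of 30 and 100 of 229 IVA12-like cells, and in 0 of 42 and 1 of 338 EL4-like cells.

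Odc1 was sparse in single cells. At 2000 UMIs it was found in 21.4% (10.3% to 36.8%) and 18.6% (14.6% to 23.2%) of EL4-like cells, and in 6.67% (0.818% to 22.1%) and 9.17% (5.77% to 13.7%) of IVA12-like cells. The intervals of the lines overlapped in the 150 library and did not in the 300 library. Mouse Odc1 was found in 0 of 82 thinned Jurkat-like cells, which allows a share of up to 3.66% (3 counts of 82) or 4.40% by the upper end of the exact binomial interval, and in 0.709% of 282. Before thinning, 59.5% and 60.6% of EL4-like and 23.5% and 35.1% of IVA12-like cells held an Odc1 UMI.

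Ncl and Npm1 were found in nearly every cell even at 2000 UMIs. Ncl was seen in 97.6% and 98.2% of EL4-like and in 93.3% and 98.7% of IVA12-like cells, and Npm1 in 97.6% and 99.4% and in 100% and 99.6%. Nme1 was seen in 78.6% (63.2% to 89.7%) and 78.1% (73.3% to 82.4%) of EL4-like cells. In IVA12-like cells it was seen in 96.7% (82.8% to 99.9%) and 87.3% (82.3% to 91.4%), so the intervals of the lines overlapped in the 150 library and met at their ends in the 300 library.

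The difference between the lines was also read within ranges of depth. Among cells of 8000 UMIs or more, Myc was at 1099 and 1102 CPM in 25 and 122 IVA12-like cells, and at 139.9 and 157 CPM in 35 and 175 EL4-like cells. Among cells of 4000 to under 8000 UMIs in the 300 library, it was at 1270 CPM (1169 to 1378) in IVA12-like and 159 CPM (132 to 188) in EL4-like cells. Among cells under 4000 UMIs in that library it was at 1183 CPM (998 to 1392) and 233 CPM (149 to 346). Myc was thus higher in IVA12-like cells in each of these ranges. For Odc1 the lines were not apart under 4000 UMIs in the 300 library, where counts were 9 and 10 UMIs. It was at 87.3 CPM (39.9 to 166) in EL4-like and 81.6 CPM (39.1 to 150.0) in IVA12-like cells. From 8000 UMIs up in that library Odc1 was at 156 CPM in EL4-like and 48.4 CPM in IVA12-like cells. Nme1 intervals overlapped too under 4000 UMIs, at 543 CPM (410 to 705) and 767 CPM (620 to 938). Ncl and Npm1 were lower in the shallowest range in both lines, at 2086 and 2415 CPM in EL4-like and 2113 and 2814 CPM in IVA12-like cells in the 300 library, against 2969 and 3556 and 2960 and 3904 CPM from 8000 UMIs up.

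EL4-like cells came from 2 clusters, with overlapping intervals of the Myc level. It was 129 CPM (92.4 to 175) and 151 CPM (134 to 169.97) in cluster 2, and 156 CPM (112 to 210.3) and 173 CPM (151 to 196) in cluster 3. The unnamed shallow cluster had 1 Myc UMI in 9 cells in the 150 library and 485 CPM (367 to 628) in the 300 library, between the values of the named lines. By marker levels alone, 40 cells of that cluster were EL4-like, 48 IVA12-like and 7 neither.

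Jurkat-like cells held an intermediate level of MYC. It had 207 UMIs in the 150 library, or 336 CPM (292 to 385), and 418 UMIs in the 300 library, or 315 CPM (286 to 347). Set beside the mouse lines, Myc in IVA12-like cells was at 3.23 and 3.61 times the Jurkat-like level, and the Jurkat-like level was 2.38 and 1.97 times that of EL4-like cells. Human and mouse values are each taken over the UMIs of their own species and depend on each gene's own annotation, so this order across species is a description with no test.

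The order of the classes was not the same for the other genes. ODC1 was at 60.0 CPM (42.3 to 82.7) and 85.3 CPM (70.3 to 103) in Jurkat-like cells, between EL4-like and IVA12-like cells in both libraries. In the 150 library its interval overlapped that of EL4-like cells, and in the 300 library the 3 intervals were apart. Among cells of 8000 UMIs or more in the 300 library, ODC1 was at 141 CPM (99.5 to 193) in Jurkat-like cells. Odc1 in EL4-like cells of that depth was at 156 CPM (139.8 to 173), so these intervals overlapped. NCL was at 2373 CPM (2253 to 2498) and 2693 CPM (2606 to 2783), within a ratio of 1.07 of either mouse line in each library. NPM1 was at 2717 CPM (2588 to 2850.1) and 2230.0 CPM (2150.3 to 2312), the lowest of the 3 classes in both libraries. NME1 was at 564 CPM (507 to 627) and 509 CPM (471 to 549), also the lowest, with IVA12-like cells at 2.51 and 2.39 times that level.

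At 2000 UMIs per cell MYC was detected in 42.7% (31.8% to 54.1%) and 36.9% (31.2% to 42.8%) of Jurkat-like cells, and in 66.7% and 54.4% before thinning. Human MYC was found in 0 of 42 and 4 of 348 EL4-like cells before thinning, the former allowing a share of up to 7.14% (3 counts of 42) or 8.41% by the exact binomial interval, and the latter being 1.15%. MYC UMIs were spread unevenly among Jurkat-like cells, with a variance over the mean of 1.81 and 1.92 at 2000 UMIs, against 1.27 and 1.51 for NCL. For ODC1 it was 0.938 and 0.971, but its low mean of 0.07 and 0.16 UMIs keeps this ratio near 1. At that depth 5 of 82 and 14 of 282 cells had 3 or more MYC UMIs, and 47 and 178 had none.

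MYC differed between the 3 clusters of Jurkat-like cells, which were made without MYC or the other 4 genes. It was at 592 CPM (486 to 714) and 504 CPM (434 to 583) in cluster 1, at 225 CPM (169 to 292) and 196 CPM (161 to 237) in cluster 2, and at 229 CPM (166 to 309) and 305 CPM (254 to 363) in cluster 3. Cluster 1 was the highest in both libraries, with intervals above those of the others. Its cells were also the shallowest, with median depths of 4699 and 3083 UMIs against 6582.5 and 4501.5 in cluster 2 and 10020.5 and 4029 in cluster 3. The part of depth in this was not tested. Since clusters and MYC come from the same cells, these values are a description with no test.

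By depth, Jurkat-like cells under 4000 UMIs had MYC at 579 CPM (378 to 848) and 380.3 CPM (327 to 440.1). Cells of 4000 to under 8000 UMIs had 316 CPM (251 to 392) and 269.98 CPM (229 to 316), and those from 8000 UMIs up 317 CPM (258 to 386) and 299.6 CPM (238 to 372). The shallowest cells were the highest in both libraries, and among them and the deepest cells the intervals overlapped. Against the middle range the intervals of the shallowest cells overlapped in the 150 library and were apart in the 300 library. NPM1 showed the same order of clusters as MYC, at 3171 and 2664 CPM in cluster 1 against 2189 and 2049 in cluster 2 and 2961 and 2083 in cluster 3. Its intervals in clusters 1 and 3 overlapped in the 150 library (2919 to 3439 and 2720 to 3218).

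**Figure D4:**
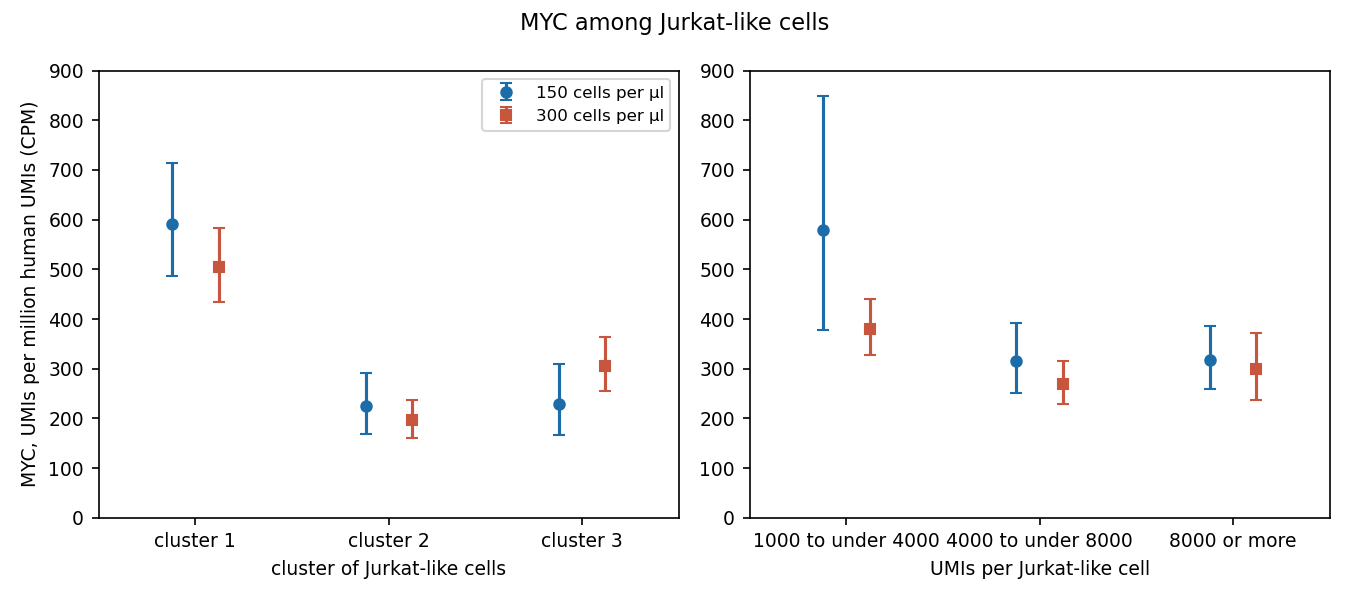
MYC in CPM of human UMIs (vertical axes, from 0) in the 3 clusters of Jurkat-like cells (left) and in 3 ranges of UMIs per cell (right), with circles for the 150 library, squares for the 300 library and bars for 95% Poisson intervals. Cluster 1 is at 592 and 504 CPM, above clusters 2 and 3 in both libraries, and cells under 4000 UMIs are at 579 and 380.3 CPM.

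The loading concentrations were compared within each class by the log2 ratio of CPM, the 300 library over the 150 library, with exact conditional binomial intervals. With 1 library per concentration there is no replicate check and no test. Of the 15 pairs of gene and class, 1 was beyond 2-fold, where 3.76% of genes with at least 100 UMIs were beyond it in EL4-like, 5.03% in IVA12-like and 1.77% in Jurkat-like cells. This was Odc1 in IVA12-like cells, at 1.25 (0.32 to 2.35) from 10 and 118 UMIs. Odc1 was at 0.51 (0.12 to 0.93) in EL4-like and ODC1 at 0.51 (-0.04 to 1.08) in Jurkat-like cells, so all 3 classes had the higher value in the 300 library.

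For 8 of the 15 pairs the interval excluded 0, that is 3 of 5 in EL4-like, 3 of 5 in IVA12-like and 2 of 5 in Jurkat-like cells, where it did for 27.0%, 29.1% and 26.7% of genes. TMM scaling, which matches the bulk of genes between libraries, shifted the ratios by 0.13 in EL4-like, 0.14 in IVA12-like and 0.13 in Jurkat-like cells. Relative to this shift the interval excluded 0 for 9 of 15 pairs, 3 of 5 in EL4-like, 4 of 5 in IVA12-like and 2 of 5 in Jurkat-like cells, where it did for 24.8%, 26.6% and 25.8% of genes. Intervals are narrower for genes with more UMIs, so these shares do not compare genes of like abundance. NCL and Ncl were at 0.18 to 0.26 in the 3 classes before the shift and 0.06 to 0.12 after it.

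Myc and MYC held close to the same level in both libraries. Myc was at 0.18 (-0.16 to 0.54) in EL4-like and 0.07 (-0.07 to 0.21) in IVA12-like cells, and MYC at -0.09 (-0.33 to 0.16) in Jurkat-like cells. After the shift the values were 0.05, -0.07 and -0.22. NPM1 in Jurkat-like cells was lower in the 300 library, at -0.28 (-0.37 to -0.20) and -0.41 after the shift, while Npm1 in the mouse lines was at -0.02 and 0.02 before the shift and -0.14 and -0.12 after it. Nme1 was at -0.16 (-0.30 to -0.02) and -0.22 (-0.35 to -0.10) in EL4-like and IVA12-like cells, and NME1 at -0.15 (-0.34 to 0.04).

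**Figure D5:**
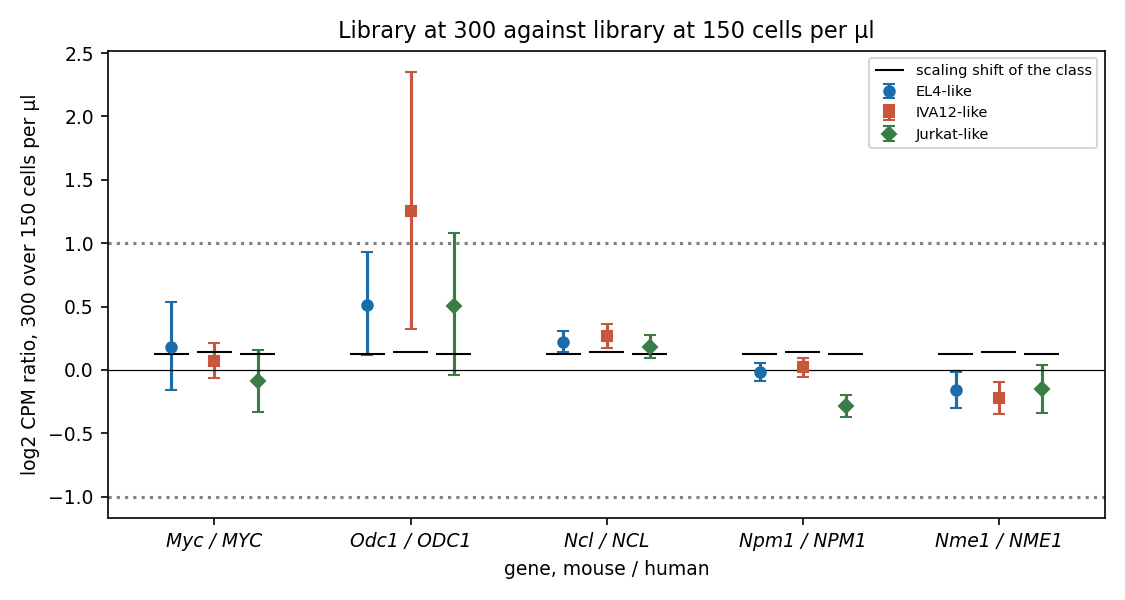
Log2 ratio of CPM, the 300 library over the 150 library (vertical axis), for each gene in EL4-like (circles), IVA12-like (squares) and Jurkat-like cells (diamonds), with 95% exact conditional binomial intervals as bars, short black lines for the TMM shift of each class and dotted lines at 2-fold. Odc1 in IVA12-like cells, at 1.25, is the only value beyond 2-fold.

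Correlations between the genes from cell to cell within a class were weak for most pairs. Over the 10 gene pairs at 2000 UMIs per cell, the median Pearson r was 0.006 and 0.02 in EL4-like, 0.11 and 0.05 in IVA12-like and 0.04 and 0.005 in Jurkat-like cells. Cells of a class share a library, a fixed depth and sparse counts, and these correlations are descriptions over 30 to 338 cells. The highest of all, Odc1 with Ncl at 0.38, came from the 30 IVA12-like cells of the 150 library and was -0.04 in the 229 of the 300 library. In the 300 library the highest were Ncl with Npm1 in EL4-like (0.23) and IVA12-like cells (0.15), and NPM1 with NME1 in Jurkat-like cells (0.21), where NCL with NPM1 was at 0.20. Myc with Odc1 was at -0.02 and 0.01 in EL4-like and IVA12-like cells and MYC with ODC1 at -0.02. Among IVA12-like cells of that library, 18 held UMIs of both Myc and Odc1, where the product of the separate shares gives 17.8. The like counts were 13 against 17.3 in EL4-like cells and 14 against 15.9 for MYC and ODC1 in Jurkat-like cells.

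The mouse genes whose levels over the 4 sums were most like Myc were found by Euclidean distance on log2(CPM + 1). The nearest was mm10_ENSMUSG00000029616 at a distance of 0.41, with 109 and 142 CPM in EL4-like and 1099 and 1151 CPM in IVA12-like cells. The next was mm10_ENSMUSG00000028484 at 0.64, with 197 and 174 CPM in EL4-like and 966 and 878 CPM in IVA12-like cells. Neither identifier could be paired with a symbol here.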

How the data were processed

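For each library the authors deposited UMI counts, whole numbers per Ensembl gene and cell barcode, not normalized. By the study's methods, seqtk downsampled the reads, STAR (2.4.2a in the submitters' processing notes) aligned them to combined hg19 and mm10 sequence, and Drop-seq tools made the counts. Whether the deposited counts came from downsampled reads is not given in the sources used here. The tables held 2398956 and 8707135 UMIs over 2000 and 4000 barcodes.

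The 10 genes, marker lists and tests were chosen with earlier results of these data known. All 10 genes were to be named, and up to 2 identifiers of genes like Myc. Lists of the MYC network, polyamine, nucleolar and nucleotide genes were planned but not used, since no table paired their symbols with the identifiers. Marker identifiers were paired with symbols by hand. Sequences and coordinates of the genes were not used here.

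Mouse cells and human cells were clustered separately, leaving out the 10 genes, with 2000 variable genes, 15 principal components, 15 neighbours and Leiden resolution 0.5 (leidenalg 0.10.2, Python 3.11.15). A mouse cluster far shallower than its libraries (median 1293 UMIs, where the mouse cells of its libraries had about 7680) and with no marker among its top 10 genes was left unnamed. Of the named clusters, those called EL4-like and Jurkat-like also had no marker among their top 10 genes by fold. They were near their libraries' depth. Mouse clusters were joined into 2 groups, and the group with the higher share of T cell marker UMIs was called EL4-like. The other group was called IVA12-like. All human clusters were called Jurkat-like without a marker rule. Clustering on either random set of the genes moved 10 and 7 of 675 named cells. No doublet caller was run, and barcodes of mixed species were left out.

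UMIs were summed per library and line, and the mouse lines were compared with edgeR 4.0.16 (R 4.3.3), using glmQLFit and glmQLFTest, TMM, filterByExpr, a library block and Benjamini-Hochberg adjustment over all genes at 0.05. The 4 sums left 1 residual degree of freedom, and the spread was shared over genes. The prior degrees of freedom were infinite, so the own spread of a gene had no weight. The block is the library itself, from which both sums of a pair come. Shares were computed after thinning cells to 2000 UMIs. Poisson, binomial (Clopper-Pearson) and conditional binomial intervals are exact, at 95%. Alternatives were DESeq2 1.42.0, other scalings, filters, depths, purities and classes.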

Additional observations from a re-analysis of the deposited data

Results flagged for a closer look

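Human genes were also counted in barcodes that were not cells by the limit of 1000 UMIs. These were 51 barcodes of the 150 library and 82 of the 300 library, with 300 to under 1000 UMIs and at least 50% human. In the 150 library they held 30 UMIs of NCL, 43 of NPM1 and 10 of NME1, and in the 300 library 8 of MYC, 70 of NCL, 56 of NPM1 and 12 of NME1. Each of these counts is above the 3 UMIs that a count of 0 allows, in barcodes outside every comparison above. That limit takes no account of free RNA. The 6 cytotoxic markers fixed for TALL-104 summed to 763 and 1591 CPM there, against 17.8 and 26.4 CPM in Jurkat-like cells, and the median share of mouse UMIs was 26.8% and 24.5%. MYC was at 143 CPM (95% Poisson interval 29.5 to 418) and 199 CPM (85.8 to 392), and the Jurkat-like values of 336 and 315 CPM lay within both intervals. The Jurkat-like values of ODC1 and NME1 also lay within the intervals here. NCL was at 1431 CPM (965 to 2043) and 1740 CPM (1356 to 2198), below the Jurkat-like 2373 and 2693 CPM. NPM1 was at 2051 CPM (1484 to 2763) and 1392 CPM (1051 to 1807), against 2717 and 2230 CPM, thus below in the 300 library only.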

How the results depend on the processing

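The number of the 5 mouse genes called was 3 under 10 of 11 alternatives and 4 without the filter on low counts, and the direction of Myc, Odc1 and Nme1 was the same under all 11. Log2 fold changes ranged from 2.79 to 2.92 for Myc, -1.76 to -1.35 for Odc1, 0.64 to 0.76 for Nme1, -0.12 to -0.002 for Ncl and 0.06 to 0.16 for Npm1. Without the filter on low counts Npm1 passed the threshold (0.16, adjusted p = 0.026), where the median of all genes was also 0.16. With the 150 or the 300 library alone, the log2 ratio, with no test, was 2.94 and 2.83 for Myc, -2.20 and -1.46 for Odc1 and 0.75 and 0.69 for Nme1. The library is part of the replicate block, and without the block 3437 of 8902 genes were called in place of 5094. DESeq2 called 1889 of 8902 genes, and cells thinned to 2000 UMIs gave 1821, of fewer genes tested (4899). Without the filter on low counts 5597 of 14193 genes were called. In these settings the share among the 5 was further above that of all genes than in the main fit. With 5 genes this is a description. The cause of the lower count by DESeq2 was not tested. Classes by marker genes alone, which place the unnamed cluster and were chosen after seeing the data, gave 5093. A count of called genes with either library alone could not be fitted. The single pair beyond 2-fold between libraries was found under all 5 alternatives. Of the 30 levels, 25 moved beyond their counting interval when the 50 most abundant genes were left out of the totals, 11 under TMM and 11 with cells weighted equally. Leaving genes out lowers the total and so raises every level of a class and library by the same factor. That count therefore follows from the width of the intervals and does not show how stable the levels are. Depth limits Odc1 most, with 10 UMIs in IVA12-like cells in the 150 library.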
